A study of Mus musculus with 12 samples.

Results

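The 6 wild-type cultures of a telomerase study in mouse embryonic fibroblasts were compared, 3 from an mTERT line (mTERT WT) and 3 from an mTR line (mTR WT). They were taken by their labels from the 12 cultures measured, 1 microarray each. The other 6 were first-generation knockouts of the same lines, 3 without telomerase reverse transcriptase (mTERT KO) and 3 without the telomerase RNA (mTR KO). All cultures came from male C57BL/6J embryos of stage E12.5 to E14.5 and were harvested at passage 5. Each set was described as a wild type and a knockout from 1 litter. Equally numbered wild types and knockouts deviated together in the mTERT line, but not all did so in the mTR line. The wild types of both lines carry intact telomerase genes and share strain, sex, stage range and passage as labelled. They differ in the line they were bred in, so line, litter, embryo and culture cannot be told apart in this comparison. Each group rests on 3 cultures. The p-values below set differences against the spread within all 4 groups, so the knockout cultures enter it as well.

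Telomerase is an enzyme of a protein subunit, Tert, and an RNA, Terc, that adds repeats to chromosome ends. Cells of wild-type embryos have both genes, so a contrast of 2 wild-type groups shows how much fibroblast cultures differ when neither gene is deleted. Embryonic fibroblasts are a mixed preparation from the trunk and limbs of an embryo, and they keep a memory of body position in their Hox genes. Macrophages, nerve sheath cells and other cell types can be carried along in early passages.

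Values are log2 signals of 28853 probe sets, so a difference of 1 is a 2-fold change, and differences are mTERT WT minus mTR WT ± standard error unless stated. Correlations between the 6 arrays ran from 0.987 to 0.994. Arrays of the same line differed by more than 2-fold in 187 to 424 probe sets and arrays of different lines in 232 to 561, so the ranges overlapped. The background level of an array was set at the 95th percentile of 1035 odorant receptor probe sets, which are mostly silent in fibroblasts, and lay between 4.93 and 5.09. All 16 fibroblast identity genes, such as Col1a2, Vim and Pdgfrb, were above background in every culture, and none had an unadjusted p below 0.05. Their list mean was 10.5, 10.4 and 9.83 in mTERT WT 1 to 3 and 10.3, 10.2 and 10.2 in mTR WT 1 to 3. The arrays measure bulk RNA, so fewer cells of a type and less RNA per cell cannot be told apart.

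Tert and Terc did not separate the wild types. Tert read 5.65 ± 0.13 (SD, n = 3) in mTERT WT against 5.71 ± 0.07 in mTR WT, a difference of −0.06 ± 0.08 with a 95% interval from −0.24 to 0.13 (limma, adjusted p = 0.921). Terc was below background in all 6 cultures, at 4.81 ± 0.14 and 4.78 ± 0.15. The 14 telomerase and assembly genes had a median difference of 0.01 and the 12 shelterin and CST genes, which bind chromosome ends, one of 0.04. No member of either list passed or had an unadjusted p below 0.05. In the knockouts the line contrast called 1 of 28853 probe sets (0.00347%), that of Tert, which read 4.75 to 4.99 in mTERT KO and 5.69 to 5.80 in mTR KO. Terc was below background in the knockouts of both lines as well, so it does not check the mTR labels.

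Few genes passed the test between the wild types. Of 28853 probe sets, 5 (0.0173%) passed a 5% false discovery rate with limma, 1 higher in mTERT WT against 4 higher in mTR WT. An unadjusted p below 0.05 was found for 1956 (6.78%), of which 821 (2.85%) were higher in mTERT WT against 1135 (3.93%) higher in mTR WT. The groups did not overlap in 1705 probe sets with mTERT WT on top (5.91%) and in 2061 with mTR WT on top (7.14%). The lean towards mTR WT was wider among the 12479 genes above background, where 268 (2.15%) against 769 (6.16%) had an unadjusted p below 0.05. Among these genes the groups did not overlap in 4.29% with mTERT WT on top and in 10.3% with mTR WT on top. Of these genes, 56.1% had higher means in mTR WT and 43.9% in mTERT WT. More than 2-fold differences were seen in 108 probe sets, 50 of them higher in mTERT WT.

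Raet1d was the gene that passed with higher values in mTERT WT. It encodes a cell surface ligand of the NKG2D receptor of natural killer cells, and its relatives of the Raet1 family are close in sequence, so the probe set may not separate them. It read 8.31, 8.68 and 8.73 in mTERT WT 1 to 3 and 7.49, 7.56 and 7.15 in mTR WT 1 to 3. All mTERT WT cultures were above all mTR WT cultures, by 1.17 ± 0.14 or 2.25-fold (95% interval 1.81 to 2.81; limma, adjusted p = 0.0416). The knockouts stood in the same order, with 8.38, 8.83 and 8.58 in mTERT KO and 7.89, 7.88 and 7.80 in mTR KO, a difference of 0.75 ± 0.14.

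Smoc2, a matricellular protein of the SPARC family, was 2.71-fold lower in mTERT WT (95% interval 2.06 to 3.55). It read 7.07, 7.35 and 7.27 in mTERT WT against 8.78, 8.26 and 8.97 in mTR WT. The difference was −1.44 ± 0.18 (limma, adjusted p = 0.0416). All 6 knockouts lay between 7.28 and 7.82, so the mTR WT cultures alone were high, and the knockouts differed between lines by 0.19 ± 0.18. The change of the line difference with genotype did not pass (limma, adjusted p = 0.429).

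Hoxa13, the most distal gene of its cluster and a marker of hand and foot plate, read 4.76, 5.08 and 5.26 in mTERT WT against 6.24, 5.99 and 6.50 in mTR WT. It differed by −1.21 ± 0.15, or 2.32-fold (95% interval 1.85 to 2.91; limma, adjusted p = 0.0416). Hoxa13 was above background in 2 of the 3 mTERT WT arrays, so this fold includes a value at the floor. The knockouts overlapped, between 5.42 and 5.76. Ahrr, the repressor of the aryl hydrocarbon receptor, read 4.43, 4.39 and 4.57 in mTERT WT against 5.17, 5.26 and 5.46 in mTR WT, with a difference of −0.84 ± 0.10 (limma, adjusted p = 0.0416). All mTERT WT arrays were below background for Ahrr, so its fold was taken against the background level and was at least 1.20-fold. The knockouts read between 4.58 and 4.89 and did not differ by line beyond their spread (0.11 ± 0.10). Ahrr lies on the chromosome of Tert, with 21 annotated genes between them in RefSeq. The fifth probe set is shared by the 2 interferon zeta genes Gm13274 and Ifnz. It was lower in mTERT WT by 0.60 on the log2 scale, a difference of −0.60 ± 0.08 (limma, adjusted p = 0.0465).

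These calls sat close to the threshold. With the replicate number as a block over all 12 arrays, Raet1d and Smoc2 (both 0.0415) and Ahrr (0.0467) kept an adjusted p below 0.05, while Hoxa13 (0.0522) and the Gm13274 and Ifnz probe set (0.0585) did not. In the 6 wild-type arrays with that block 0 passed, with adjusted p from 0.0634 to 0.0977. Without the block, the fit of these 6 arrays alone gave each of the 5 a limma adjusted p of 0.237. Leaving out mTERT WT 2, mTERT WT 3, mTR WT 1 or mTR WT 3 ended all 5 calls (adjusted p from 0.0855 to 0.297). Raet1d alone remained without mTERT WT 1 (0.0422), and Raet1d, Smoc2 and Hoxa13 remained without mTR WT 2 (0.0377, 0.00696 and 0.0208). Omission of mTERT KO 1, 2 or 3 or of mTR KO 2 ended all 5 calls too (limma, adjusted p from 0.0593 to 0.0928). Ahrr alone remained without mTR KO 1 (0.0280), and all but Raet1d (0.0712) without mTR KO 3. Over the omission of single wild types or knockouts the differences stayed between 1.05 and 1.31 for Raet1d, −1.64 and −1.29 for Smoc2, −1.34 and −1.07 for Hoxa13 and −0.90 and −0.76 for Ahrr.

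**Figure D1:**
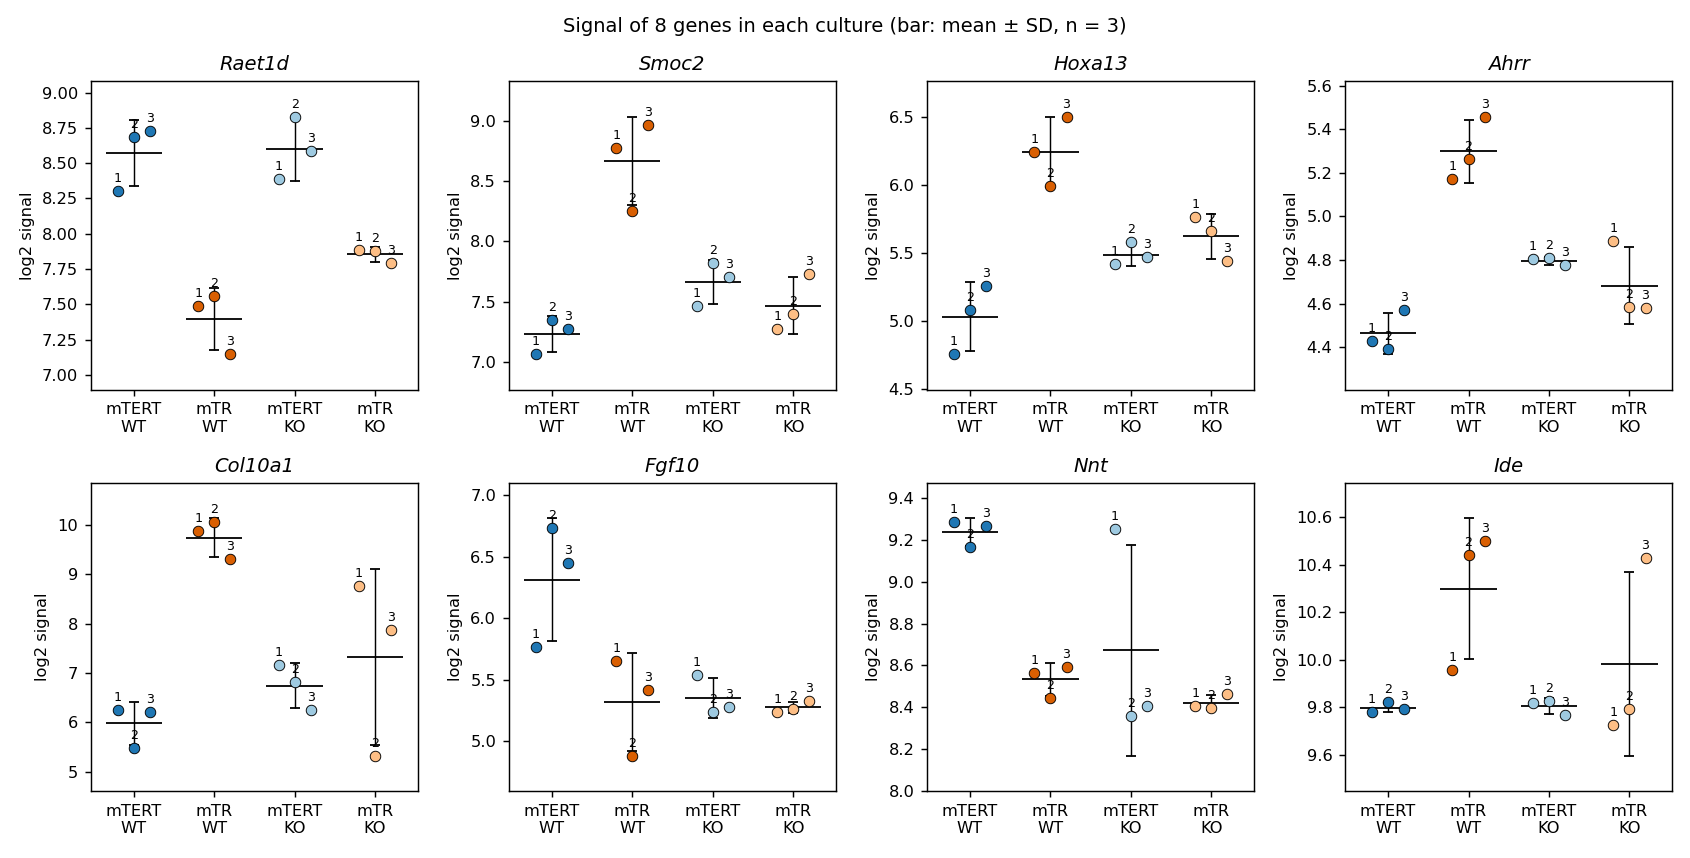
Log2 signal of 8 genes (vertical axes, scaled per gene and not starting at 0) in the 12 cultures, grouped by line and genotype on the horizontal axis. Points are cultures with their replicate number, and horizontal lines and bars are the group mean ± SD (n = 3). Raet1d separates the lines in wild types and knockouts, while Smoc2, Hoxa13 and Ahrr stand apart in mTR WT, where Hoxa13 reads 5.99 to 6.50.

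The genes next in the ranking did not pass and are given as values. With higher values in mTERT WT, Nrk, a kinase of embryonic tissues, read 6.36, 5.80 and 5.95 against 5.05, 4.98 and 4.82, a difference of 1.09 ± 0.16 (limma, adjusted p = 0.0975). Tbx1, a T-box factor of pharyngeal mesoderm, read 6.25, 6.44 and 6.30 against 5.82, 5.52 and 5.60, a difference of 0.68 ± 0.10 (0.0975). Both had the same order in the knockouts, with differences of 0.99 ± 0.16 for Nrk and 0.49 ± 0.10 for Tbx1 and no overlap. Fgf10, a signal that drives budding of limbs and airways, read 5.76, 6.73 and 6.44 in mTERT WT against 5.65, 4.88 and 5.42 in mTR WT (0.99 ± 0.23; limma, adjusted p = 0.385). The knockouts of both lines read 5.24 to 5.54 for Fgf10, so mTERT WT 2 and 3 alone were high.

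The further genes of this direction were Fmr1, the RNA-binding protein lost in fragile X syndrome (0.70 ± 0.17), Tmem88, a membrane protein that inhibits Wnt signalling (0.72 ± 0.17), and Prelid2 (0.57 ± 0.13). The cholesterol synthesis genes Fdft1 and Msmo1 (both 0.54 ± 0.11) belonged to it as well. Smaller differences, between 0.28 and 0.48, were found for 1700025G04Rik, Tmem170, Slc12a9, Pced1b, Olfr609 and Manea, an endomannosidase of glycan processing. Of these, Pced1b was below background in mTR WT, and Olfr609, an odorant receptor, did not exceed the background level in any culture. Adjusted p ran from 0.255 to 0.395 for these 11 genes.

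With higher values in mTR WT, the largest difference belonged to Col10a1, the collagen of hypertrophic cartilage. It read 6.24, 5.48 and 6.21 in mTERT WT against 9.87, 10.05 and 9.30 in mTR WT, a difference of −3.76 ± 0.67 or 13.5-fold with a 95% interval from 4.88 to 37.6 (limma, adjusted p = 0.206). The mTR KO cultures were spread over 8.76, 5.32 and 7.88 and the mTERT KO cultures over 7.15, 6.82 and 6.25, so the wild-type groups were apart and the knockouts overlapped. The spread in mTR KO enters the pooled error: Col10a1 passed in the fit of the 6 wild-type arrays alone (limma, adjusted p = 0.0286) and without mTR KO 2 (limma, adjusted p = 0.00863).

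Gldn, a matrix protein that gathers sodium channels at nodes of Ranvier, read 4.29, 4.41 and 4.93 in mTERT WT against 5.43, 5.84 and 5.86 in mTR WT (at least 1.59-fold; limma, adjusted p = 0.0779). Its knockouts did not overlap either, with a difference of −0.58 ± 0.16. Pdk4, a kinase that inhibits pyruvate dehydrogenase, read 6.36, 6.34 and 6.34 against 7.11, 6.92 and 7.20 (−0.73 ± 0.11, 0.118) and between 6.06 and 6.54 in all knockouts. Tiam2, an exchange factor for Rac, differed by −0.72 ± 0.10 (0.0756), Rasal2, a Ras GTPase-activating protein, by −0.89 ± 0.14, and Nrn1, a neurite growth protein, by −1.46 ± 0.26. Srpx2, a secreted matrix protein, differed by −1.05 ± 0.18, Tln2, a talin that links integrins to actin, by −0.67 ± 0.11, and Scube3, a secreted signal peptide protein, by −0.51 ± 0.09. Ppm1l (−0.57 ± 0.10), Dip2c (−0.42 ± 0.07) and Megf9 (−0.41 ± 0.07) completed the set. The other 4 probe sets of Dip2c differed by −0.33 to 0.02, so they did not all show its difference. The 8 genes from Rasal2 to Megf9 had limma adjusted p from 0.119 to 0.213.

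The line differences of the 30 genes named by rank were also taken in the knockouts. These were described as littermates of the ranked cultures, and their spread entered the p-values of the ranking, so they are no independent check. In the knockouts 27 of the 30 had the same sign of line difference (90%), against 54.6% of all probe sets. The groups did not overlap in the same order for 11 of the 15 genes higher in mTERT WT and for 8 of the 15 higher in mTR WT, against 2.96% and 2.95% of genes above background in the knockouts. The exceptions in sign were Smoc2, Ahrr and Pdk4, whose knockout differences were 0.19, 0.11 and 0.14. Most differences were smaller in the knockouts, but the change with genotype passed for 0 of 28853 probe sets with limma (965 with an unadjusted p below 0.05, smallest adjusted p 0.404).

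**Figure D2:**
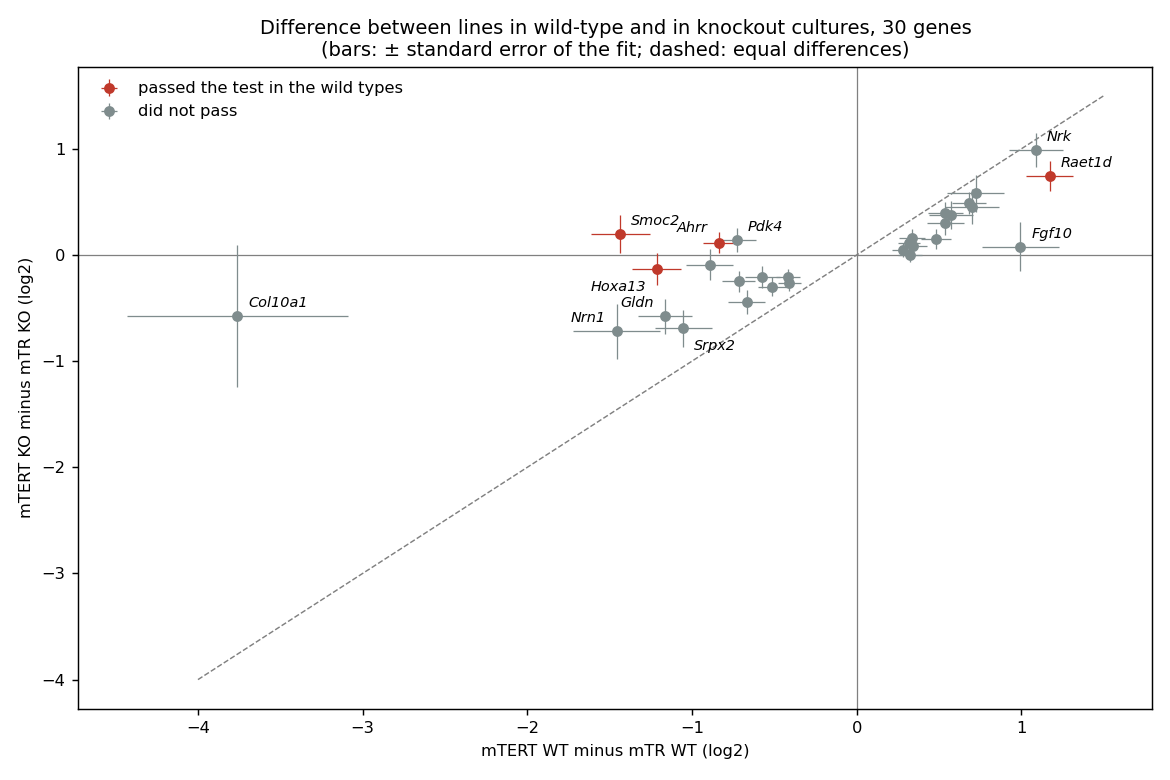
Line difference of the 30 genes in the wild types (horizontal axis, log2) against the line difference in the knockouts (vertical axis, log2), with bars of ± 1 standard error of the fit (n = 3 per group). The 4 genes in red passed the test in the wild types. Most points lie on the side of 0 that they have in the wild types and nearer to 0, while Smoc2, Ahrr and Pdk4 lie slightly above 0 in the knockouts.

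Hox genes encode the homeodomain factors that mark position along the body axis and the limb. Genes at the 5′ end of the HoxA and HoxD clusters (paralogues 9 to 13) are active in the limb bud, the genital region and the tail, and lower numbers mark the trunk and neck. The 12 distal Hox genes measured had a median difference of −0.72 in the wild types and −0.03 in the knockouts, against a median of 0.01 over all probe sets in the wild types. Of the 12, 8 had an unadjusted p below 0.05 and non-overlapping groups, all higher in mTR WT, against 6.16% and 10.3% of genes above background, and only Hoxa13 passed after adjustment. These 8 were Hoxa9, Hoxa10, Hoxa11 and Hoxa13 and Hoxd10, Hoxd11, Hoxd12 and Hoxd13. The 4 HoxC members, Hoxc10 to Hoxc13, were not among them, and Hoxc11 to Hoxc13 were below background in all wild types. The gene lists here and below were chosen with earlier results of these data known, so their shares beside the background are descriptive only.

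Hoxd13, the last gene of the HoxD cluster, read 4.99, 6.67 and 6.65 in mTERT WT against 7.95, 8.33 and 8.40 in mTR WT (−2.12 ± 0.57; limma, adjusted p = 0.486). Hoxd10 read 4.98, 5.61 and 5.89 against 7.11, 6.66 and 7.25 (−1.51 ± 0.30). Hoxd11 read 4.81, 5.33 and 5.52 against 6.65, 6.37 and 6.66 (−1.34 ± 0.26). In each of the 3, mTERT WT 1 was the lowest wild type. Of the 12 distal genes, 1 was above background in mTERT WT 1, against 8 in mTERT WT 2 and 8 in mTERT WT 3. Most values of mTERT WT 1 in these differences are thus at the floor. Hoxa11, which patterns the forearm and shank, read 4.93, 5.35 and 5.51 against 6.99, 5.80 and 6.71 (−1.23 ± 0.27). Hoxa10 differed by −0.81 ± 0.18, Hoxa9 by −0.64 ± 0.15 and Hoxd12 by −0.57 ± 0.16, the last with all mTERT WT arrays below background (at least 1.12-fold).

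In the knockouts the line difference of the 8 genes lay between −0.44 (Hoxa11) and 0.68 (Hoxd13), and mTR KO 2 read 5.44 for Hoxd13 where mTR KO 1 read 7.93. In the knockouts 7 of the 12 distal genes had higher means in the mTR line, and 2 of them, Hoxa10 and Hoxa11, did not overlap. The change of the line difference with genotype passed for none of the 12 (limma, unadjusted p below 0.05 for Hoxa10, Hoxa13 and Hoxd10 to Hoxd13). Mean signals of the distal list were 4.79, 5.18 and 5.41 in mTERT WT, 6.00, 5.68 and 5.89 in mTR WT, and between 5.21 and 5.49 in all knockouts. So mTERT WT 1 and 2 lay below all knockouts, mTERT WT 3 among them and the mTR WT cultures above them. With either replicate block, and without any single array, 8 members again had higher values in mTR WT and an unadjusted p below 0.05. Without mTERT WT 1 or without mTR WT 1, 1 member also had such a p in the other direction. Of all 28853 probe sets, 1494 to 2460 had an unadjusted p below 0.05 in these settings, in either direction.

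The 24 anterior and trunk Hox genes lay the other way. Of these, 21 had higher means in mTERT WT, with a median of 0.25 in the wild types and 0.25 in the knockouts, but 1 had an unadjusted p below 0.05 and 0 passed. Hoxc4 read 6.78, 6.46 and 6.69 in mTERT WT against 5.92, 6.45 and 5.53 in mTR WT (0.68 ± 0.30; limma, adjusted p = 0.727), so mTR WT 2 all but reached mTERT WT 2. Hoxb5 read 5.52, 5.87 and 5.86 against 5.45, 5.47 and 4.99. The median was 0.08 without mTR WT 3 and 0.41 without mTR WT 2, so it rested on which mTR WT cultures were counted.

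**Figure D3:**
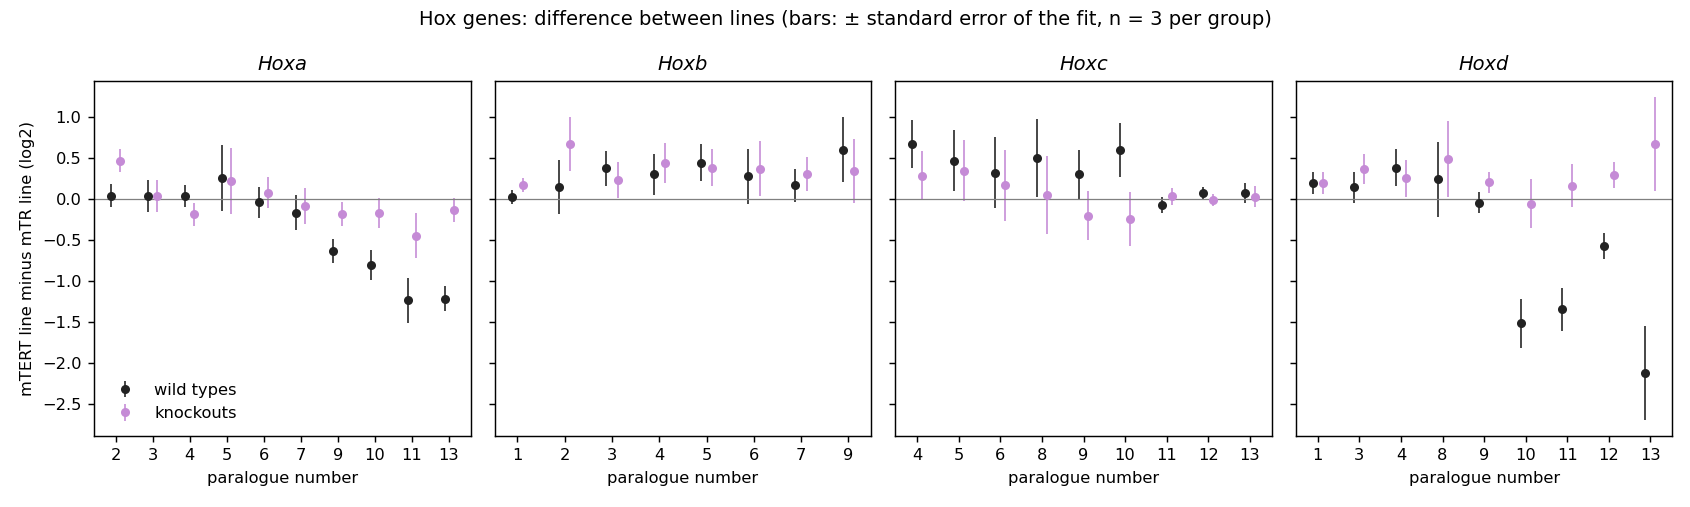
Difference between lines (vertical axis, log2, mTERT minus mTR) of each measured Hox gene, ordered by paralogue number within the 4 clusters, for wild types (black) and knockouts (violet). Points are fitted differences and bars ± 1 standard error (n = 3 per group). In the wild types Hoxa9 to Hoxa13 and Hoxd10 to Hoxd13 lie below 0, down to −2.12 for Hoxd13, while the knockouts of these genes lie between −0.44 and 0.68 and the HoxB genes at or above 0.

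Transcription factors of limb and body position followed in part. Of 56 measured, 37 had higher means in mTR WT (66.1%, against 56.1% of genes above background). An unadjusted p below 0.05 was found for 11 of these and 3 of the others, against 6.16% and 2.15% of genes above background, with 0 passing. Tbx18, a factor of somites and limb mesenchyme, read 6.45, 6.93 and 6.22 in mTERT WT against 7.47, 7.38 and 7.30 in mTR WT (−0.85 ± 0.21). Msx2, a homeobox target of BMP signals, differed by −0.87 ± 0.22, and Lhx9, a limb bud LIM factor, by −0.98 ± 0.28. Gata6, a factor of heart and gut mesoderm, went the other way, at 7.29, 7.46 and 7.31 in mTERT WT against 6.70, 6.78 and 5.89 in mTR WT. Its difference of 0.90 ± 0.26 had a like size in the knockouts (0.84 ± 0.26). The list median of −0.11 was −0.24 without mTERT WT 1, −0.22 without mTR WT 2, −0.05 without mTERT WT 3 and −0.06 without mTR WT 1. The knockout median of this list was 0.001, with 28 means higher in mTERT KO and 28 in mTR KO.

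Matrix genes were mostly higher in mTR WT, and of them only Smoc2 passed. Of 29 glycoproteins and proteoglycans, 21 had higher means in mTR WT (72.4%, against 56.1% of genes above background). An unadjusted p below 0.05 was found for 10 of them and for 3 in the other direction, against 6.16% and 2.15%, with a median of −0.14 (−0.09 without mTERT WT 2). Mgp, a Gla protein that keeps matrix from calcifying, read 9.11, 9.63 and 9.74 in mTERT WT against 10.17, 10.48 and 9.93 in mTR WT (−0.70 ± 0.20). Ecm1, an extracellular matrix protein, differed by −0.36 ± 0.10 in the wild types and −0.34 ± 0.10 in the knockouts. Over the whole list, however, the knockout median was 0.03, with 16 means higher in mTERT KO and 13 in mTR KO. Fmod, fibromodulin, which guides collagen fibril assembly, read 7.22, 7.58 and 7.23 against 9.28, 7.96 and 8.23 (−1.15 ± 0.36, or −0.75 without mTR WT 1).

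Collagen genes leaned the same way with smaller differences. Of 20 measured, 16 had higher means in mTR WT (80.0%, against 56.1% of genes above background). An unadjusted p below 0.05 was found for 5 of them and for 1 in the other direction, against 6.16% and 2.15% of genes above background. The median was −0.19 (−0.33 without mTERT WT 1 and −0.11 without mTERT WT 3), and the largest difference towards mTERT WT was 0.84. Beside Col10a1, the fibril collagen genes Col5a2 (−0.29 ± 0.07) and Col5a3 (−0.46 ± 0.14) did not overlap. Col18a1, a basement membrane collagen, read 6.82, 6.94 and 6.54 in mTERT WT against 7.27, 8.04 and 7.21 in mTR WT, a difference of −0.74 ± 0.24 that was −0.47 without mTR WT 2. In the knockouts it was −0.82 ± 0.24. The list median was −0.07 in the knockouts, with 15 of 20 means higher in mTR KO. The major collagen gene Col1a2 read 12.93 to 13.15 in all 6 cultures.

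Some tendon and cartilage markers had higher values in mTR WT. Of 8 tendon genes 5 had higher means there and 4 an unadjusted p below 0.05, and of 22 cartilage and bone genes 14 and 3, against 56.1% and 6.16% of genes above background. The shares with higher means in mTR WT, 62.5% and 63.6%, were near that of the background. Scx, the scleraxis factor of tendon progenitors, read 6.87, 6.59 and 6.84 in mTERT WT against 7.97, 7.48 and 7.66 in mTR WT (−0.94 ± 0.21, limma, adjusted p = 0.373), and its knockouts differed by 0.35 ± 0.21. The tendon factor Mkx differed by −0.43 ± 0.15 and Thbs4, a thrombospondin of tendon matrix, by −0.92 ± 0.38 (−0.37 without mTR WT 1). The tendon genes Kera, Egr1 and Egr2 had slightly higher means in mTERT WT, by 0.04 to 0.11. The 8 tendon genes had a median of −0.56, or −0.36 without mTR WT 1, and of −0.03 in the knockouts. The cartilage and bone genes, of which 11 were above background, had a median of −0.07, or −0.12 without mTERT WT 3, −0.11 without mTERT WT 1 and −0.04 without mTERT WT 2. Their knockout median was 0.004, with 11 means higher in mTERT KO and 11 in mTR KO. Col2a1, the main cartilage collagen, read 7.68, 6.91 and 7.26 against 8.76, 8.18 and 7.62 (−0.90 ± 0.27). Sox6, a partner of the cartilage factor Sox9, differed by −0.34 ± 0.15 with overlapping groups (−0.21 without mTERT WT 1). Its relative Sox5 was below background in mTERT WT and differed by −0.28 ± 0.12 (−0.15 without mTR WT 2). None passed, and the part of other cell types in these differences was not tested.

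Secreted signals and their receptors differed in both directions. Of 47 growth factor and receptor genes, 25 had higher means in mTR WT and 22 in mTERT WT, with a median of −0.04. An unadjusted p below 0.05 was found for 8 and 4 of them, against 6.16% and 2.15% of genes above background. Fgf9, a growth factor of mesenchyme, read 6.10, 6.00 and 6.21 in mTERT WT against 7.67, 6.59 and 7.58 in mTR WT (−1.18 ± 0.32). Fgfr2, an FGF receptor that responds to Fgf10 in its epithelial form, differed by −0.62 ± 0.18 while Fgf10 was higher in mTERT WT. Gas6, the ligand of the TAM receptors, read 9.73, 9.71 and 9.58 against 10.63, 10.05 and 10.12 (−0.59 ± 0.13), with −0.52 ± 0.13 in the knockouts. Of 36 TGF-beta and BMP pathway genes, 26 had higher means in mTR WT (72.2%, against 56.1% of genes above background). The median was −0.19 (−0.11 without mTERT WT 1), and members differed by up to 0.86 towards mTERT WT. The knockout median was −0.01, with 20 means higher in mTR KO and 16 in mTERT KO. An unadjusted p below 0.05 was found for 5 higher in mTR WT and 2 higher in mTERT WT, against 6.16% and 2.15% of genes above background. Chrdl1, a BMP antagonist, read 5.16, 5.29 and 5.04 against 5.82, 5.71 and 6.63 (−0.89 ± 0.20), and Id3, a target of BMP signals, differed by −0.47 ± 0.11 with no overlap. The latent TGF-beta binding protein genes Ltbp3 (−0.23 ± 0.07) and Ltbp2 (−0.41 ± 0.14) did not overlap either. In the Wnt list of 35 genes Nkd2, an inhibitor of the pathway, differed by −1.05 ± 0.23 and by −0.78 ± 0.23 in the knockouts. This list had 19 higher means in mTR WT and 16 in mTERT WT, with a median of −0.02. An unadjusted p below 0.05 was found for 3 and 0 of them, against the same background shares. No gene of these 3 lists passed.

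Cholesterol synthesis genes all lay towards mTERT WT. Cholesterol is made from acetyl-CoA through mevalonate, squalene and lanosterol, and the genes of these steps share a control by the factor Srebf2, which is held back by Insig1 when sterols are plentiful. All 17 measured genes had higher means in mTERT WT, by 0.11 to 0.68, with a median of 0.42. In 11 of the 17 the groups did not overlap and the unadjusted p was below 0.05, against 4.29% and 2.15% of genes above background in this direction, while 0 passed after adjustment (smallest adjusted p = 0.307, limma). In 2 of the 17, Fdft1 and Msmo1, the rank was high enough to be named above.

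The promoters of 3 of these genes, 1 from the mevalonate step, 1 regulator and 1 late enzyme, are shown because all members lay the same way. They were chosen after the values were seen. They are the 250 bases before the RefSeq start in build GRCm38.p6, on the gene's strand, of Hmgcs1 at chr13:119690101-119690350 on the + strand, Insig1 at chr5:28071162-28071411 on the + strand and Msmo1 at chr8:64733579-64733828 on the - strand. Capitals mark CCAAT or its reverse complement ATTGG, the box read by NF-Y, and in Hmgcs1 also TCACNCCAC (searched on both strands), a form of the sterol response element.
Hmgcs1: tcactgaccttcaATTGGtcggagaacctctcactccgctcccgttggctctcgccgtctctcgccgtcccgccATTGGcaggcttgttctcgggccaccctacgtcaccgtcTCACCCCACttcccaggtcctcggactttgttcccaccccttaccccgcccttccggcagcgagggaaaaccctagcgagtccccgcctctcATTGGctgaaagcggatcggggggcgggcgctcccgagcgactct
Insig1: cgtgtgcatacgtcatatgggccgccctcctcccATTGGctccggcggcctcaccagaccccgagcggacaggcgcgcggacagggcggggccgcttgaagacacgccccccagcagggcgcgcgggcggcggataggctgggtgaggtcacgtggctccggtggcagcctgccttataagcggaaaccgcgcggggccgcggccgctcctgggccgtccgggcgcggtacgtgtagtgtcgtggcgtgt
Msmo1: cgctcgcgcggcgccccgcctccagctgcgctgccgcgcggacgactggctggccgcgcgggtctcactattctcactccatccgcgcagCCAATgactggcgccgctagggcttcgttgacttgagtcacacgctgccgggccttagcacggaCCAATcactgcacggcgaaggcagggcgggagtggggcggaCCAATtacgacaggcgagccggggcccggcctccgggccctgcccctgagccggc
The Hmgcs1 window holds CCAAT 3 times and TCACNCCAC once, and the Msmo1 window holds CCAAT 3 times. CCAAT was found in all 13 of the 17 list genes that have a RefSeq promoter entry, against 37.5% of 27025 genes. TCACNCCAC was found in Hmgcs1 alone among the 13, against 1.22% of all genes. The matches describe these letters only, and binding was not measured.

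The values behind the list were as follows. Fdft1, squalene synthase, read 8.89, 8.67 and 8.68 in mTERT WT against 8.32, 8.24 and 8.07 in mTR WT (0.54 ± 0.11). Msmo1, a sterol methyl oxidase, read 11.14, 10.98 and 11.18 against 10.73, 10.63 and 10.34 (0.54 ± 0.11). Insig1 read 9.35, 9.30 and 9.10 against 8.85, 8.56 and 8.46 (0.62 ± 0.15). In each of them the lowest mTERT WT culture was above the highest mTR WT culture. Sc5d, sterol desaturase, differed by 0.43 ± 0.11, and Hmgcs1, HMG-CoA synthase, by 0.57 ± 0.16, with 9.40, 9.38 and 9.24 against 8.98, 8.77 and 8.58. The knockouts showed the same sign for 17 of 17 genes with a median of 0.28, and 3 of the 17 did not overlap there. With the replicate number as a block in the 6 wild types, 12 of the 17 had an unadjusted p below 0.05 and 0 passed. With that block over 12 arrays, an alternative chosen after seeing the data, the counts were 14 and 2. Of all 28853 probe sets, 2460 had an unadjusted p below 0.05 in either direction with the first block and 2310 with the second. Without mTERT WT 1, which had the highest list mean of the wild types, the count with an unadjusted p below 0.05 was 7.

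**Figure D4:**
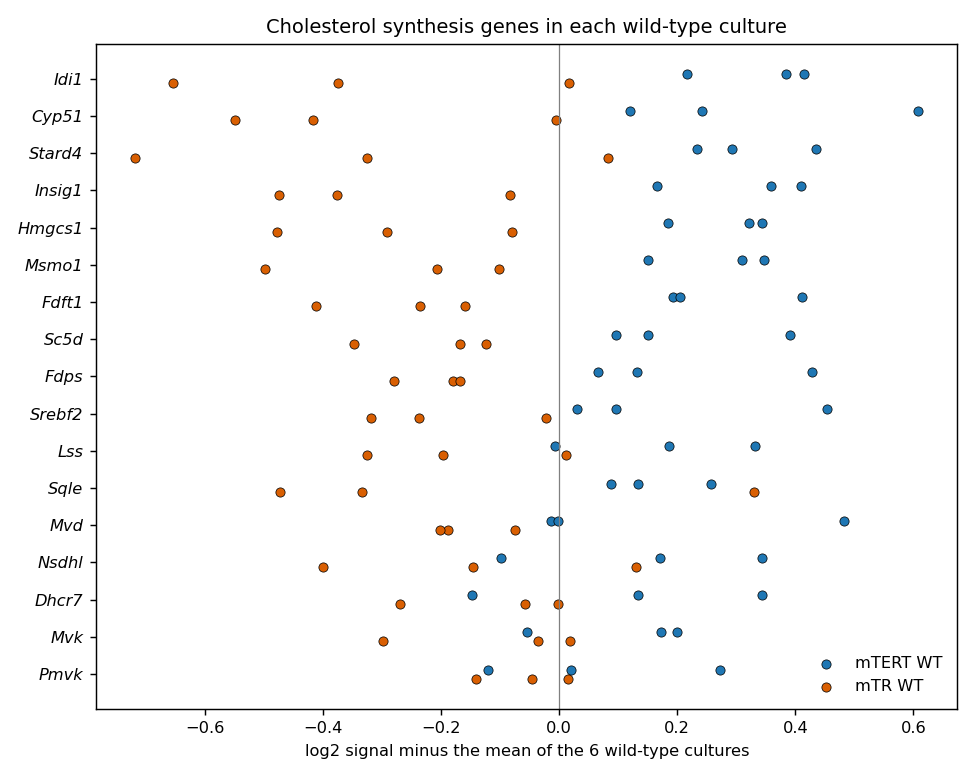
Log2 signal of the 17 cholesterol synthesis genes in the 6 wild-type cultures, as the distance from the mean of the 6 (horizontal axis), with 1 row per gene on the vertical axis ordered by the line difference. Points are single cultures of mTERT WT (blue) and mTR WT (orange). The groups are apart in 11 genes, and in Sqle, for example, mTR WT 1 lies above all mTERT WT cultures.

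Macrophage markers differed between cultures more than between lines. All 19 markers were above background in every culture, and all had higher means in mTERT WT, by 0.57 to 1.33 with a median of 0.84. The groups overlapped for all 19 and 0 had an unadjusted p below 0.05. List means were 7.83, 9.18 and 9.43 in mTERT WT 1 to 3 and 6.69, 8.41 and 8.72 in mTR WT 1 to 3, so number 1 was low in both lines. Between cultures of the same number mTERT WT was above mTR WT for 19 of 19 markers in all 3 numbers. The labels do not tie numbers between lines, so they give no ground for this matching. With that number as a block in the 6 wild types 19 had an unadjusted p below 0.05, and over 12 arrays 1. Of all 28853 probe sets, 2460 and 2310 did so, in either direction. The block in the 6 wild types leaves 2 residual degrees of freedom. The markers stand for 1 cell type, so they are not 19 separate results. Ccl6, a chemokine of myeloid cells, read 7.10, 9.18 and 8.17 against 5.24, 8.34 and 6.91, and C1qa, a complement subunit, 8.14, 9.48 and 10.09 against 6.61, 8.67 and 9.09. The median was 0.24 without mTR WT 1, 0.47 without mTERT WT 3, 1.28 without mTR WT 3 and 1.36 without mTERT WT 1, and it was −0.06 in the knockouts.

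Interferon-stimulated genes, which encode antiviral proteins, leaned the same way. Of 31 measured, 29 had higher means in mTERT WT, with a median of 0.71 in the wild types and −0.07 in the knockouts, and 0 had an unadjusted p below 0.05. Their mean was 6.68, 7.63 and 6.25 in mTERT WT against 5.74, 6.59 and 6.18 in mTR WT, with mTERT WT 2 highest. Ifi35 differed by 0.56 ± 0.27 with overlapping groups, and Irgm1, an interferon-induced GTPase (0.54 ± 0.28, or 0.31 without mTR WT 1), read 10.12, 10.59 and 10.20 against 9.31, 10.32 and 9.67. The median was 0.34 without mTERT WT 2 and 0.45 without mTR WT 1. With the block over 12 arrays 9 of the 31 had an unadjusted p below 0.05, and in the 6 wild types alone 23. Of all 28853 probe sets, 2310 and 2460 did so, in either direction. The block matches numbers that the labels do not tie between lines. Antigen presentation genes had 12 of 14 higher means in mTERT WT, with a median of 0.26 (0.14 without mTERT WT 2), among them Tap2, a peptide transporter, at 0.47 ± 0.21. The part of the macrophage signal in these lists was not tested.

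**Figure D5:**
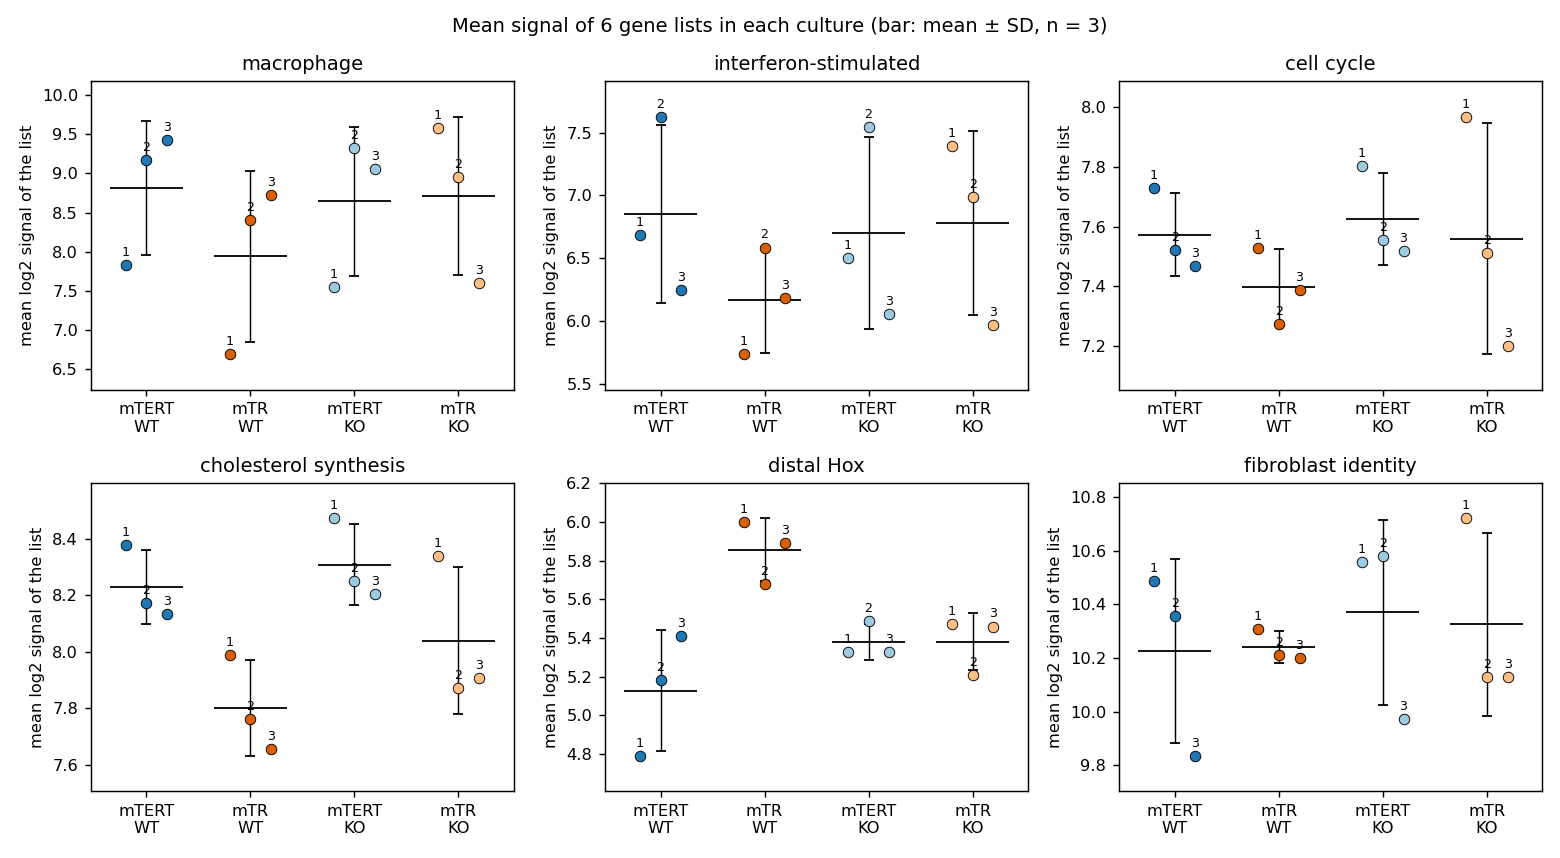
Mean log2 signal of 6 gene lists (vertical axes, scaled per list and not starting at 0) in each culture, grouped by line and genotype. Points carry the replicate number, and lines and bars are the group mean ± SD (n = 3). Macrophage means span 6.69 to 9.43 among the wild types and overlap between lines, whereas cholesterol means do not overlap (lowest mTERT WT culture 8.13, highest mTR WT culture 7.99) and distal Hox means are apart (highest mTERT WT culture 5.41, lowest mTR WT culture 5.68).

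Proliferation and energy genes had small differences towards mTERT WT. Of 38 cell cycle genes 36 had higher means in mTERT WT, with a median of 0.16, and 1 had an unadjusted p below 0.05, E2f2 (0.23 ± 0.09), which read 4.76 to 5.11, near background. With the replicate number as a block 9 of the 38 had an unadjusted p below 0.05 in the 6 wild types and 4 over 12 arrays. Of all 28853 probe sets, 2460 and 2310 did so, in either direction. The list median was 0.09 without mTERT WT 1 or without mTR WT 2. Of 16 glycolysis and hypoxia genes 15 had higher means in mTERT WT, with a median of 0.20, or 0.09 without mTERT WT 2. The exception was Pdk4. The medians of DNA damage response, p53 and senescence genes were 0.06, 0.04 and 0.01, and of 30, 22 and 22 members 0 passed. Smooth muscle and myofibroblast genes had higher means in mTR WT for 14 of 15, with a median of −0.11 and 0 with an unadjusted p below 0.05. That median was −0.20 without mTERT WT 3, −0.07 without mTERT WT 1 or mTERT WT 2, and 0.03 in the knockouts.

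A single culture carried an epithelial gene. Sftpc, the surfactant protein of lung alveolar cells, read 9.17 in mTR WT 1 and between 4.07 and 4.44 in the 11 other cultures. In mTR WT 1 the surfactant gene Sftpb read 5.23, the epithelial adhesion gene Epcam 4.90 and the lung factor Nkx2-1 5.49, where the other wild types reached 5.02, 4.70 and 5.57. Sftpb, Epcam and Nkx2-1 were chosen after their values were seen. The 20 epithelial genes had a list mean of 5.42 in mTR WT 1 and of 4.95 to 5.18 in the other 5 wild types, with 13 above background against 6 to 8.

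Genes known to vary among C57BL/6 stocks and other strains were listed because the labels name C57BL/6J for all cultures. Of 16 measured, 8 had higher means in mTERT WT and 8 in mTR WT, with a median of −0.0005 and 0 that passed. An unadjusted p below 0.05 was found for 1 and 3 of them, against 2.15% and 6.16% of genes above background. Nnt, the mitochondrial transhydrogenase whose transcript is truncated in C57BL/6J, read 9.28, 9.16 and 9.26 in mTERT WT against 8.56, 8.44 and 8.59 in mTR WT, a difference of 0.70 ± 0.18 (limma, unadjusted p = 0.00279, adjusted p = 0.483). The knockouts fell at the same levels culture by culture: mTERT KO 1 read 9.25, while mTERT KO 2 and 3 read 8.36 and 8.41 and the mTR KO cultures 8.40 to 8.46. So 4 of the 12 cultures lay between 9.16 and 9.28 and 8 between 8.36 and 8.59, with none between. Ide, the insulin-degrading enzyme, had a higher level in mTR WT 2 (10.44), mTR WT 3 (10.50) and mTR KO 3 (10.43) than in the other 9 cultures (9.73 to 9.96). Its wild-type difference was −0.50 ± 0.18 (limma, adjusted p = 0.598). Equally numbered wild types and knockouts of a line differed in Nnt (mTERT 2 and 3) and in Ide (mTR 2). Genotypes at these genes were not measured.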

How the data were processed

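RNA of 12 mouse embryonic fibroblast cultures, 3 per group, was hybridised to Affymetrix Mouse Gene 1.0 ST arrays. The deposited values are log2 signals per probe set, with 1 column per array. The submitters' processing notes name GCOS 1.4, Affymetrix Expression Console and PLIER without saying what each did, and the normalization, genome build and scan batches are not given in the sources used here. Array quantiles differed by at most 0.08, and no column was left unused (0 other sample columns). No detection counts exist for arrays, so the number of cultures limits the precision.

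From these values group means of all 4 groups were fitted with limma 3.58.1 in R 4.3.3 (lmFit and eBayes, 8 residual degrees of freedom and 3.14 from the prior). The contrasts were mTERT WT minus mTR WT, the same for the knockouts, and the difference between these. P-values were adjusted by Benjamini and Hochberg over 28853 probe sets, with a 5% false discovery rate. With 3 against 3 an exact permutation test cannot go below 0.1, so none is given. Where 1 group lay below background on all its arrays, the fold was taken against the background level and is given as "at least". The fit was tested on simulated data.

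Of the probe sets 21789 have 1 gene symbol, 1621 several and 5443 none. Named genes are Tert, Terc and, in each direction, 15 genes with 1 symbol whose higher group mean was above 4.96, the 95th percentile of the odorant receptor means. These are first those that passed and then those with the smallest p. In each of 38 gene lists (834 of 906 entries matched) the members that passed and those with the smallest p, up to 4, could be named. Others were chosen after their values were seen, namely Hmgcs1, Kera, Egr1, Egr2, Mest, Stmn2, Sqle, Col1a2, Vim, Pdgfra, Sftpb, Epcam and Nkx2-1, and the distal Hox genes were given as a whole list. The members and lists were chosen with earlier results of these data known. Promoters came from RefSeq (GRCm38.p6).

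The labels give each set a number within its line and do not tie numbers between lines. Over 14426 brighter probe sets the deviations from group means of equally numbered wild types of the 2 lines correlated at 0.527, 0.135 and 0.132, all over 0.1. Differently numbered wild types reached 0.138 and 0.179. Equally numbered mTR WT and KO cultures correlated at −0.156, 0.289 and −0.377 and mTERT KO and mTR KO cultures at −0.114, −0.023 and 0.332, so not all equally numbered cultures deviated together. Equally numbered mTERT WT and KO cultures, which are littermates, correlated more strongly, at 0.674, 0.733 and 0.790. The main fit has no block and treats them as independent, and the blocked values are given as alternatives. With the mTERT pairs as a random block 4 probe sets passed, all among the 5 calls of the main fit. Alternatives were the replicate block, other normalizations, filters and weights, and the omission of each culture.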

Additional observations from a re-analysis of the deposited data

How the results depend on the processing

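The main fit gave 5 wild-type calls. The count was 0 after quantile normalization, 0 among probe sets above the odorant receptor level and 0 with a minimum fold of 1.5. It was 9 with array weights and 1 in a fit of the 6 wild-type arrays alone. That 1 call was Col10a1, and 0 of the 5 main calls remained there (limma, adjusted p = 0.237 for each). The replicate block gave 9 calls over 12 arrays (3 of the 5 among them) and 0 over the 6 wild types, where 2 residual degrees of freedom remained. Leaving out single cultures gave 0 to 11 calls (0 without mTERT WT 2, 11 without mTR WT 2). The 12-array block and the omission of knockouts were chosen after seeing the data. The knockout contrast had 1 call, 0 with a minimum fold of 1.5, and 0 to 8 without single cultures (0 without mTERT KO 2, 8 without mTR WT 2). Near-zero values changed sign: Terc was −0.0075 with array weights and −0.033 to 0.12 without single cultures (−0.033 without mTERT WT 3, −0.028 without mTR WT 1), and Tert −0.10 to 0.015 (0.015 without mTERT WT 3). The causes were not tested. Among the values of named genes under an alternative, 689 kept direction and side of the threshold, 80 lost and 9 gained a call, and 4 changed sign. List medians moved beyond their spread in 25 cases and stayed within it in 925. With 3 cultures a group, line, litter and culture cannot be told apart.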

Other observations

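Of 18 neural and glial genes 11 had higher means in mTERT WT, with a median of 0.03 and values up to 0.76 (Stmn2). A pair of nerve sheath genes of this list was uneven among the mTR cultures. Erbb3, the neuregulin receptor of Schwann cells, read 5.27, 6.62 and 4.79 in mTR WT 1 to 3 and was below background in all mTERT WT cultures, at 4.51 to 4.73. The difference of −0.92 ± 0.35 was −0.39 without mTR WT 2, and in the knockouts it was −1.24 ± 0.35, with 5.62 to 6.08 in mTR KO. Sox10, a neural crest factor that acts upstream of Erbb3, read 6.13 in mTR WT 2 and 5.08 to 5.33 in the other wild types (−0.43 ± 0.19, or −0.15 without mTR WT 2). Neither gene passed the test, and the 2 genes were highest in the same wild type.

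Of 28 imprinted genes 18 had higher means in mTERT WT and 10 in mTR WT, with a median of 0.05 and 0 that passed. Igf2, the fetal growth factor expressed from the paternal copy, read 8.46, 8.92 and 8.32 in mTERT WT against 7.84, 7.64 and 7.18 in mTR WT, groups that did not overlap (1.01 ± 0.35). Slc38a4, an amino acid transporter, differed by 0.56 ± 0.19 (0.34 without mTERT WT 1) and Rian, a maternally expressed noncoding RNA, by 0.49 ± 0.16. The other way, Mest differed by −1.09 ± 0.70 with overlapping groups. The fibroblast receptor gene Pdgfra split by culture instead, at 9.01, 8.83 and 6.30 in mTERT WT 1 to 3, and its littermate knockouts read 9.44, 9.43 and 6.21. In the mTERT line the third set was thus low for Pdgfra in both genotypes.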
